A study of Mus musculus with 48 samples.

Results

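Complement is a cascade of plasma proteins, cell-bound regulators and receptors that marks and lyses cells, and 35 of its genes were followed here in mouse liver spheroids engrafted in the eye and in the tissues they came from. The genes were taken by name from a list of the pathway, out of 46517 mouse genes counted, and were placed by the source that the field knows for each: 17 hepatocyte-made components, the 3 chains of macrophage-made C1q, 2 other myeloid-made genes, 5 made by many cell types, 4 membrane regulators and 4 receptors. All 35 were found, 34 by the symbol that the deposited tables carry and Cd46 by its gene identifier alone. RNA was measured in 16 samples. They were 5 explants taken at 2 months post-transplantation (post-tx), 3 naïve irises, 3 livers of donor mice, 3 preparations of isolated hepatocytes and 2 samples of spheroids kept in vitro. All samples are given as strain C57BL/6N and genotype WT Albino, with no other allele or agent. The study as a whole used adult mice of both sexes. Outside its diet experiments it did not collect the sex of the mice, so that of these samples is not known.

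An explant was a spheroid with the iris around it, so its RNA comes from both tissues, although the label gives hepatocytes as its cell type. The spheroids were formed from liver cells enriched for hepatocytes by perfusion and density centrifugation, which lowers but does not remove other liver cells. In bulk RNA fewer cells of a type and less RNA per cell cannot be told apart. The labels do not say whether samples of a group came from separate animals, and the p-values then measure only the spread between samples.

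Complement is started in several ways. C1q bound to antibodies or dying cells activates C1r and C1s, mannose-binding lectins and ficolins activate the MASP proteases, and both routes cleave C4 and C2. C3, which all routes cleave, is amplified by factors B, D and P, and cleaved C5 assembles with C6, C7, C8 and C9 into the membrane attack complex. The liver is the main source of most of these plasma proteins, while C1q is made mainly by macrophages and dendritic cells, and receptors for C3 and C5 fragments sit on myeloid cells.

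The total count was 2718518 to 6789648 per sample, each the sum of 3 technical libraries. The 10 hepatocyte markers summed to 14323 to 17983 TPM (transcript counts scaled to gene length and library total) in livers, hepatocyte preparations and spheroids in vitro, to 5892 to 8382 TPM in explants and to 1542 to 1832 TPM in irises. The 10 macrophage markers summed to 881 to 2211 TPM in explants, 567 to 621 TPM in irises, 330.5 to 919.9 TPM in livers, 112 to 196 TPM in hepatocyte preparations and 436 to 517 TPM in spheroids in vitro. Liver 1 had the highest macrophage sum of the livers. The deposited tables give an iris share of 82%, 68%, 81%, 72% and 59% for explants 1, 2, 4, 5 and 6.

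The 17 hepatocyte-made genes summed to 10612 to 12491 TPM in livers and 11520 to 13046 TPM in hepatocyte preparations. They summed to 7902 and 8050 TPM in spheroids in vitro, 2999 to 5843 TPM in explants and 1064 to 1158 TPM in irises. The 3 C1q chains had another order, with 462 to 1553 TPM in explants, 332 to 604 TPM in livers, 351 to 366 TPM in irises, 243 and 323 TPM in spheroids in vitro and 74.0 to 138 TPM in hepatocyte preparations. The 4 receptors summed to 51.5 to 170 TPM in explants, 37.5 and 38.8 TPM in spheroids in vitro, 25.5 to 28.9 TPM in irises, 8.96 to 36.7 TPM in livers and 2.92 to 5.41 TPM in hepatocyte preparations. The mean was highest in explants for C1q and receptors and in hepatocyte preparations for hepatocyte-made genes, although liver 1 lay above the lowest explant for C1q and the receptor ranges of livers and irises overlapped.

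**Figure D1:**
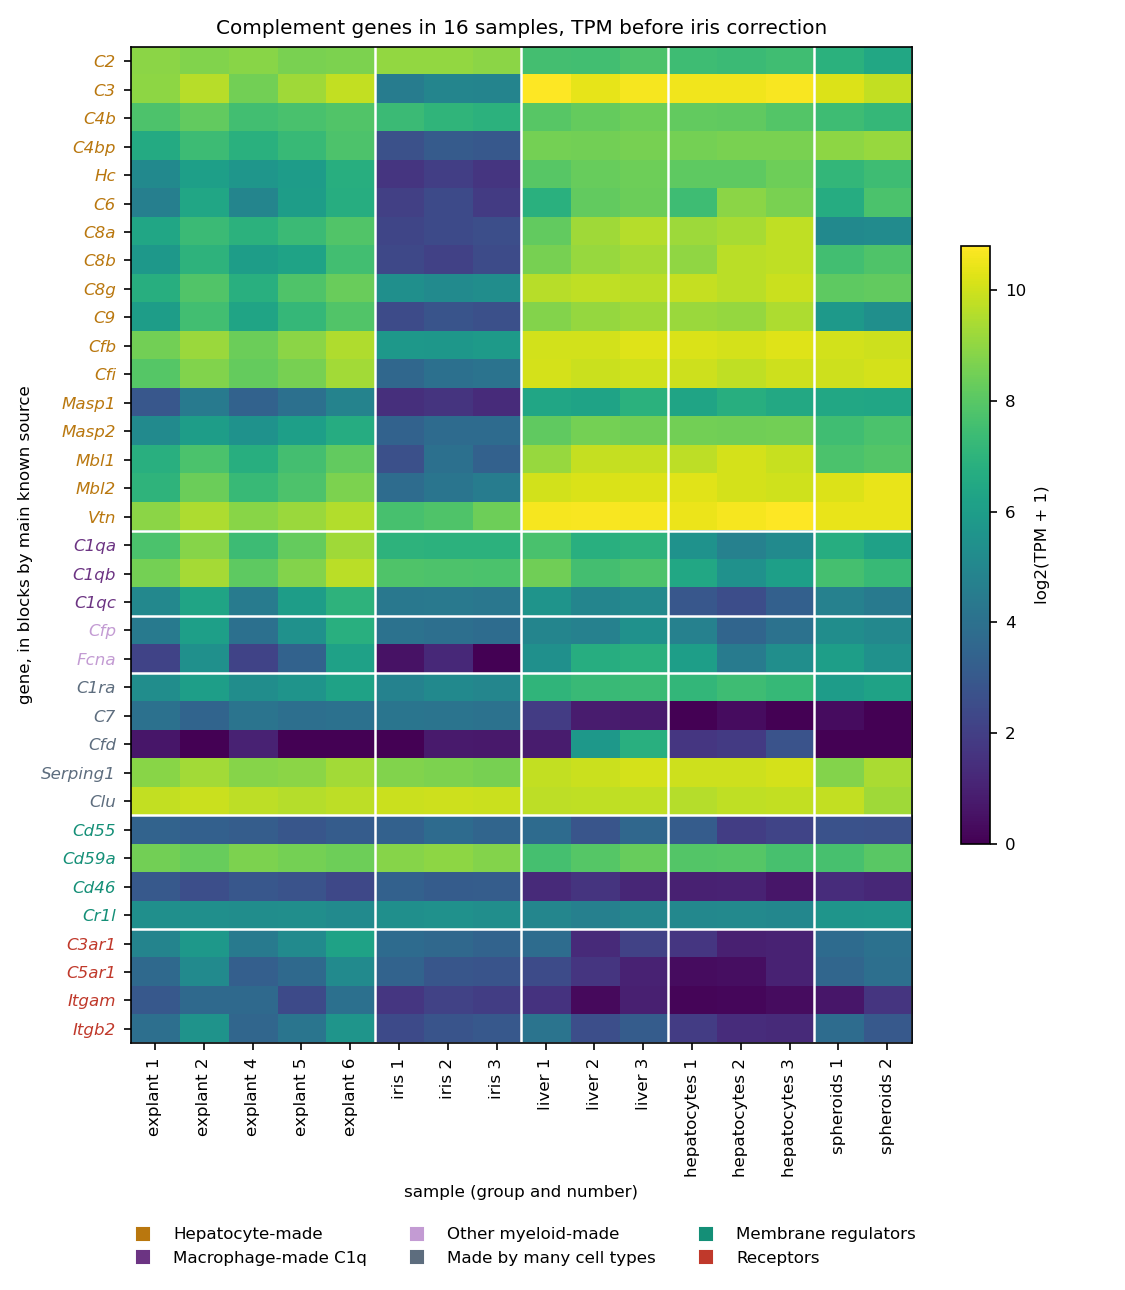
Heat map of the 35 complement genes (rows, in blocks by known source) in the 16 samples (columns), as log2(TPM + 1) before iris correction, from dark (0) to yellow (high). Hepatocyte-made genes are bright in livers, hepatocyte preparations and spheroids in vitro and darker in irises, except C2 and, for iris 1 beside spheroid sample 2 only, C4b. The C1q, C3ar1, C5ar1 and Itgb2 rows are brightest in explants 2 and 6.

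To see which complement genes each of the tissues mixed in an explant holds, irises were compared with livers. The liver held most of the pathway, 24 of 34 tested members being lower and 2 higher in irises, where 22.1% of all 15459 genes tested were called lower and 29.8% higher (edgeR, adjusted p under 0.05 and a log2 fold change beyond 1). The call was lower for 16 of the 17 hepatocyte-made genes, with a median log2 fold change of -6.75 beside 0.11 over all genes tested. Cfd was not tested. In counts divided by library total (CPM), a scale that differs from TPM, all irises lay above all livers for 7 members and below them for 23, which held for 61% and 21.7% of all genes. Groups recur from one comparison to the next, so the comparisons are not independent.

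C3, the protein on which all routes converge, was at 22.3, 29.3 and 28.7 TPM in irises and 1767, 1330.2 and 1594 TPM in livers (-6.75 ± 0.16, adjusted p = 4.67e-09). C9, the pore-forming unit of the attack complex, was at 4.46, 6.03 and 5.22 TPM in irises and 446, 538 and 605 TPM in livers (-7.55 ± 0.21, adjusted p = 8.35e-09). C8b was at 3.28 to 4.53 TPM in irises, a mean of 0.740% of the liver mean. The exception among hepatocyte-made genes was C2, the protease partner of C4b in the classical C3 convertase. Its level was 524, 520.2 and 487 TPM in irises and 188, 186 and 220.0 TPM in livers, every iris lying above every liver, with a log2 fold change of 0.48 ± 0.11 (SE) that was too small for a call. C2 shares 1656 of its 3872 exonic bases with the readthrough gene model Gm20547, which also covers 2246 of the 2825 exonic bases of Cfb, and reads of the 2 genes cannot be told apart from it.

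The genes called higher in irises were C7 and Cd46. C7, which anchors the forming attack complex in the membrane, was at 17.5, 16.6 and 15.7 TPM in irises and 2.83, 0.7796 and 0.7302 TPM in livers (2.63 ± 0.42, adjusted p = 0.00045). Cd46, a membrane cofactor for the cleavage of C3b, was at 9.23, 7.77 and 8.22 TPM in irises and 1.47, 2.04 and 1.21 TPM in livers (1.53 ± 0.26, adjusted p = 0.000654). Cd46 shares 1079 exonic bases with an antisense model, and strand was not used in counting.

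C1q stood apart from most hepatocyte-made genes in how much of it irises held. The iris mean in TPM was 82.9% of the liver mean for C1qa, 85.4% for C1qb and 52.6% for C1qc, although all 3 chains were called lower. C1qa was at 125, 120.3 and 121 TPM in irises and 206, 111 and 124 TPM in livers, C1qb at 222, 218 and 211 TPM and 352, 192 and 220.0 TPM. C1qc was at 18.96, 19.6 and 18.5 TPM and 46.5, 29.5 and 32.4 TPM. Liver 1 was the highest of the livers for each chain. In edgeR, whose TMM scaling is not that of TPM, the fold changes were -1.14 ± 0.19, adjusted p = 0.000562 for C1qa, -1.10 ± 0.18, adjusted p = 0.000509 for C1qb and -1.80 ± 0.20, adjusted p = 3.69e-05 for C1qc. The calls of C1qa and C1qb were lost with scaling by library size alone, which moved the median of all genes from 0.11 to 0.80 and turned the sign of Clu, Cd59a and Cr1l, and were lost without liver 1.

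The explants were then compared with irises. Those irises were naïve, so what the graft adds cannot be told apart from changes in an iris after surgery and engraftment. In explants 20 of 34 tested members were higher and 0 lower, where 6.16% of all 16764 genes tested were called higher and 0.316% lower. The median log2 fold change of the members was 2.00 beside 0.01 over all genes. By source, the higher members were 15 of 17 hepatocyte-made genes, 2 of 3 C1q chains and 3 of 4 receptors, and 0 of 4 membrane regulators and 0 of the 4 tested genes made by many cell types were called. With limma-voom 12 members were called higher.

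Genes of the attack complex were among the largest called changes. C8a, the chain of C8 that inserts first into the membrane, was at 82.5, 163, 122, 165 and 231 TPM in explants and 3.796, 4.41 and 5.005 TPM in irises (5.23 ± 0.44, adjusted p = 0.000239). C9 was at 63.9, 181, 77.3, 146 and 234 TPM in explants (4.88 ± 0.60, adjusted p = 0.00109), against the iris levels given above. C8b, the partner chain of C8a, was at 53.04, 126, 62.9, 76.2 and 184 TPM in explants and 4.01, 3.28 and 4.53 TPM in irises (4.80 ± 0.60, adjusted p = 0.00123). Every explant was above every iris for these genes, which in CPM held for 11.2% of all genes tested (14.1% the other way). Explant 6 was the highest and explant 1 the lowest of the explants. Hc, which encodes C5, was at 33.97, 67.5, 49.7, 60.9 and 109 TPM in explants and 2.203, 2.97 and 2.13 TPM in irises (4.85 ± 0.49, adjusted p = 0.000467). C6, the first protein to bind cleaved C5, was at 24.01, 82.6, 29.5, 63.9 and 104 TPM in explants and 3.12, 4.29 and 2.71 TPM in irises (4.31 ± 0.65, adjusted p = 0.00312). Its explant values ranged more widely than those of Hc. C8g, the lipocalin chain of C8, rose by 2.52 on the log2 scale, and C7 did not pass the test (log2 fold change -0.11).

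Components of C3 activation followed. C3 was at 503, 783, 363, 604 and 882 TPM in explants (4.67 ± 0.37, adjusted p = 0.000194). Cfb, the factor B protease of the alternative convertase, was at 365, 584, 326, 489.7 and 721 TPM in explants and 53.7, 51.3 and 57.1 TPM in irises (3.32 ± 0.32, adjusted p = 0.000399). Every explant was above every iris for both genes (11.2% of all genes tested in CPM, 14.1% the other way), explant 4 being the lowest explant. Mbl1, a mannose-binding lectin, was at 112, 214, 108, 190.3 and 294 TPM in explants and 5.201, 14.6 and 9.201 TPM in irises (4.38 ± 0.53, adjusted p = 0.00102). Mbl2, the other mannose-binding lectin, was at 129.5, 325, 154, 218 and 405 TPM in explants and 13.1, 17.5 and 22.04 TPM in irises (3.94 ± 0.51, adjusted p = 0.00151). The lectins were highest in explants 2 and 6. Masp1, a protease that travels with the lectins, was at 6.73, 20.3, 9.397, 14.9 and 27.5 TPM in explants and 1.74, 2.099 and 1.54 TPM in irises (3.25 ± 0.57, adjusted p = 0.00708). Masp2 rose by 2.55, but shares 1817 of 3307 exonic bases with Tardbp on the other strand. C4b was higher in every explant than in every iris, with a log2 fold change of 0.81 ± 0.18 (SE) below the limit of 1, and its reads can be split with the near-identical C4a.

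Of the soluble regulators, 3 of 5 rose. Cfi, the protease that inactivates C3b and C4b, was at 247, 430.0, 300.0, 378 and 627 TPM in explants and 11.1, 15.03 and 16.1 TPM in irises (4.94 ± 0.42, adjusted p = 0.000236). C4bp, its cofactor for C4b, was at 97.2, 169, 116, 153 and 216 TPM in explants and 5.44, 7.53 and 6.94 TPM in irises (4.62 ± 0.36, adjusted p = 0.000162). Vtn, vitronectin, which keeps the attack complex out of membranes, rose by 1.35, a call lost without iris 1. Serping1, the inhibitor of C1, and Clu, clusterin, did not pass the test (log2 fold changes 0.49 and -0.09).

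C1q also rose in explants, by less than most hepatocyte-made genes. C1qa was at 213, 451, 166, 301 and 607 TPM in explants, beside 120.3 to 125 TPM in irises (1.65 ± 0.44, adjusted p = 0.0411). C1qb was at 372, 651, 274, 442 and 819.6 TPM, beside 211 to 222 TPM in irises (1.37 ± 0.37, adjusted p = 0.0406). C1qc, at 31.6, 77.1, 21.5, 62.99 and 126 TPM beside 18.5 to 19.6 TPM in irises, was not called (1.89 ± 0.58, adjusted p = 0.0639). Every explant was above every iris for the 3 chains, which in CPM held for 11.2% of all genes tested (14.1% the other way), and explants 6 and 2 were the highest. The calls of C1qa and C1qb were lost without explant 2, explant 5 or any of the irises, where the adjusted p reached 0.137 for C1qa and 0.138 for C1qb. The receptor genes called higher were C3ar1 (receptor of C3a), Itgam and Itgb2 (the chains of complement receptor 3), with log2 fold changes of 1.92 to 2.40. Limma-voom ended the calls of these 3 receptors (adjusted p = 0.0936 for C3ar1, 0.101 for Itgam and 0.163 for Itgb2), of C1qa (0.125) and C1qb (0.101), of C9 (0.0509), and of Masp1 and C6. The receptor calls were also lost when any single iris was left out, and that of Itgb2 also without explant 2. Fits without a sample gave 14 to 24 higher members. Itgam shares exonic bases with the model Gm49368. The macrophage marker sum moved with these genes across explants, at 1094, 1876, 881, 1229 and 2211 TPM in explants 1, 2, 4, 5 and 6, and its part in the result was not tested.

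To ask what the hepatocyte preparation keeps and loses, it was compared with livers. Of the 17 hepatocyte-made genes 0 were called, with a median log2 fold change of 0.18, from -0.07 (C2) to 0.64 (C6). Their mean levels in TPM ran from 86.4% (C2) to 142% (C6) of the liver means. No call in 3 samples against 3 does not show equal levels. The genes called were the 3 C1q chains, all lower, out of 31 members tested, where 2.31% of all 12236 genes tested were called lower and 0.409% higher. At an unadjusted p under 0.05, 1 member was higher and 5 were lower.

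In the hepatocyte preparations C1qa was at 43.8, 25.98 and 34.6 TPM (-1.93 ± 0.28, adjusted p = 0.0262), C1qb at 88.2, 43.1 and 66.9 TPM (-1.79 ± 0.29, adjusted p = 0.031). C1qc was at 6.53, 4.94 and 8.85 TPM (-2.27 ± 0.30, adjusted p = 0.0195). No preparation reached any liver for these chains, which in CPM held for 22.5% of all genes tested (8.83% the other way), and the mean levels were 23.7%, 25.97% and 18.7% of the liver means. The calls of all 3 chains were lost with limma-voom and without liver 2 or hepatocyte preparations 2 or 3, each of which left 0 members called, and that of C1qb also without liver 3. C3 (0.14 ± 0.13, adjusted p = 0.533) and C9 (0.34 ± 0.18, adjusted p = 0.26) had overlapping groups. The macrophage marker sums given above were lower in every preparation than in every liver as well, 1 of 10 macrophage markers (Ctss) being called lower, and their part in the result was not tested. Of the receptors, Itgb2 was at 2.75, 1.56 and 1.47 TPM in preparations and 16.9, 5.07 and 7.78 TPM in livers (-2.17 ± 0.52, adjusted p = 0.0574), which missed the threshold. C5ar1 and Itgam were too low to be tested.

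Keeping the cells as spheroids in vitro changed hepatocyte-made complement unevenly. Of the 32 members tested against hepatocyte preparations 11 were lower and 5 higher, where 9.11% of all 12247 genes tested were called lower and 8.13% higher. The 17 hepatocyte-made genes gave 9 lower and 0 higher, with a median log2 fold change of -1.11 beside 0.01 over all genes. Of the 10 hepatocyte markers 0 were called, with a median of -0.43. Counts of Alb, a marker on that list, were 10195 to 11400 in preparations and spheroids in vitro. Duplicate removal by position would cap such counts and hide changes, and whether it was by position is not certain. All 3 tested receptors and 2 of 3 C1q chains were higher. Only 2 spheroid samples were measured.

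The largest falls among called members were those of C8a and C9, which act late in the cascade. Other late genes fell less than the lectin gene Mbl1, given below. C8a was at 33.5 and 36.1 TPM in spheroids in vitro and 601, 667 and 879 TPM in hepatocyte preparations (-4.69 ± 0.32, adjusted p = 0.000153). C9 was at 57.1 and 40.3 TPM and 576, 544 and 709 TPM (-3.99 ± 0.26, adjusted p = 0.000139). The spheroid means were 4.86% (C8a) and 7.99% (C9) of the preparation means, with no overlap, and both calls held without any of the 5 samples. C8b was at 182 and 226 TPM and 509, 823 and 872 TPM (-2.17 ± 0.33, adjusted p = 0.00344). C8g was at 277 and 296 TPM and 908, 815 and 961 TPM (-1.97 ± 0.22, adjusted p = 0.00107). Hc was at 141 and 174 TPM and 278, 281 and 340.5 TPM (-1.25 ± 0.25, adjusted p = 0.0108). C6 was at 101 and 212 TPM and 174, 489 and 389 TPM, with overlapping groups, and was not called. In CPM both spheroid samples lay below all preparations for 18% of all genes tested and above them for 40.5%.

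In the lectin route Mbl1 fell. Mbl1 was at 212 and 235 TPM in spheroids in vitro and 843, 1111 and 953 TPM in hepatocyte preparations (-2.44 ± 0.23, adjusted p = 0.000584). Mbl2 was at 1208 and 1379 TPM and 1278, 1081 and 1027 TPM (-0.12 ± 0.21, adjusted p = 0.703), with overlapping groups and no call. Masp2 was at 176 and 212 TPM and 359, 348 and 362 TPM (-1.19 ± 0.22, adjusted p = 0.00694). C1ra, the C1r protease of the classical route, was at 62.2 and 73.2 TPM and 142, 174 and 149 TPM (-1.51 ± 0.20, adjusted p = 0.00213), its paralog C1rb being a close copy. Serping1, C4b and C2 fell by 1.17, 1.11 and 1.09 on the log2 scale. The Masp2 call was lost without spheroid sample 1, and that of Serping1 without that sample or hepatocyte preparation 3. With scaling by library size alone, under which the median of all genes moved from 0.01 to 0.27, the calls of C2, C4b, Masp2 and Serping1 were lost and Mbl2, Cfi and Cd55 turned sign.

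C3 was at 1183 and 881 TPM in spheroids in vitro and 1499, 1521 and 1650.0 TPM in hepatocyte preparations (-0.94 ± 0.25, adjusted p = 0.0279), below the limit for a call. C4bp and Cfi, regulators of the same source, gave values nearer to those of the preparations. C4bp was at 494 and 562 TPM and 374, 398 and 389.8 TPM (0.13 ± 0.22, adjusted p = 0.7). Cfi was at 1018 and 1099 TPM and 994, 875 and 1013 TPM (-0.18 ± 0.22, adjusted p = 0.567). Neither was called.

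**Figure D2:**
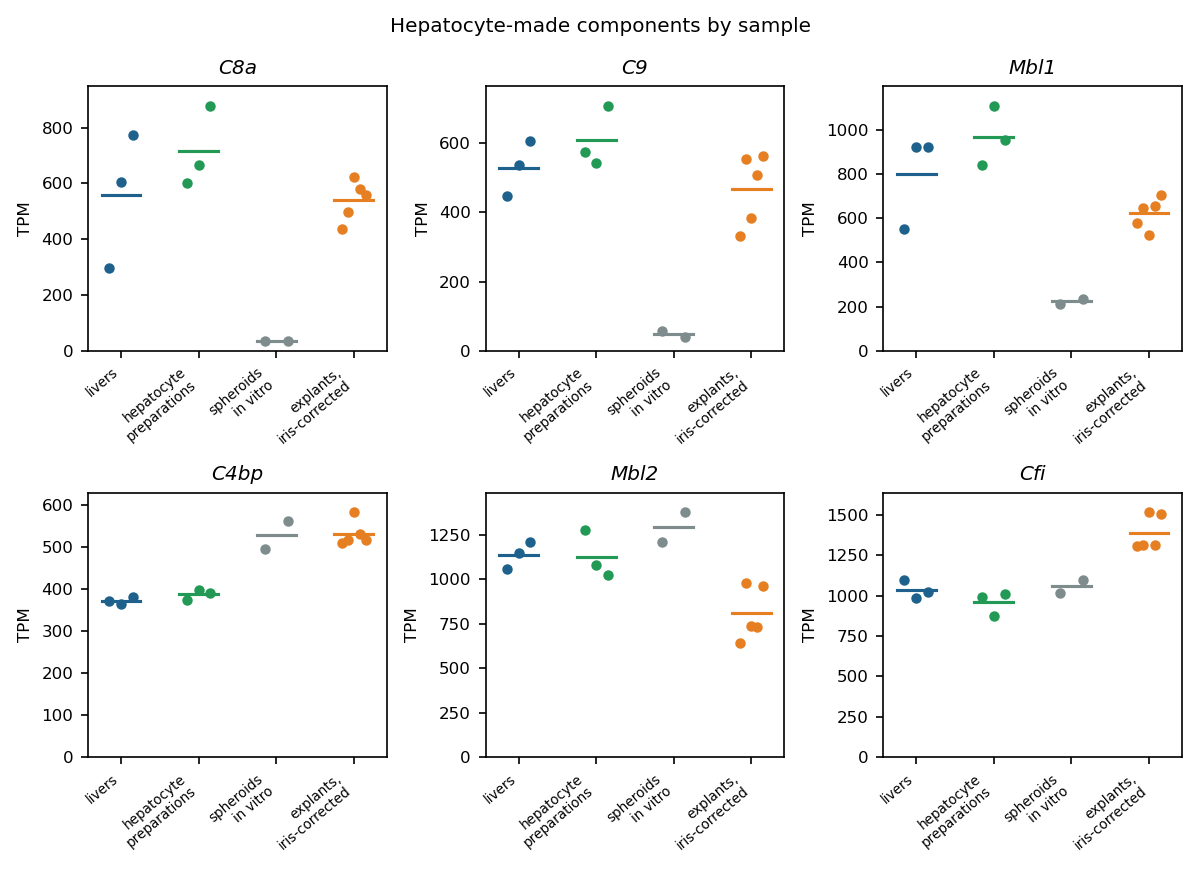
TPM (linear axis from 0) of C8a, C9, Mbl1, C4bp, Mbl2 and Cfi in each liver, hepatocyte preparation, spheroid sample in vitro and iris-corrected explant, with points for samples and bars for means. The spheroids in vitro lie at 33.5 and 36.1 TPM for C8a and at 57.1 and 40.3 TPM for C9, below all other samples, and for C4bp and Mbl2 they do not.

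The sequences before the transcription start of the genes that fell most, C8a and C9, are shown with those of Mbl2 and C4bp, which were not called. They are the 250 bases upstream in the RefSeq tables of GRCm38.p6, written 5′ to 3′ on the gene's strand, with capitals for GTTAAT (a core of sites bound by the liver factor HNF1) and AGGTCA (a core of nuclear receptor sites) on either strand. C8a lies on the minus strand and its sequence at chr4:104876399-104876648, C9 on the plus strand at chr15:6445096-6445345, Mbl2 on the plus strand at chr19:30232678-30232927 and C4bp on the minus strand at chr1:130661619-130661868.
C8a: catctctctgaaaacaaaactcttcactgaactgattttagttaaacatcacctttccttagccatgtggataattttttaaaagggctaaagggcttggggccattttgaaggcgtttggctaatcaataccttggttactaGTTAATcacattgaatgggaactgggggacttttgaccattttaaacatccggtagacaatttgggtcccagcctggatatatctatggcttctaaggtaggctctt
C9: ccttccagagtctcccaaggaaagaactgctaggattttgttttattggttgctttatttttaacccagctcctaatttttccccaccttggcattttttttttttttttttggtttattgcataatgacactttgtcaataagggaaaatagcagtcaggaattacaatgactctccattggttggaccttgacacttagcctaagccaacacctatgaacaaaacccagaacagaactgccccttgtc
Mbl2: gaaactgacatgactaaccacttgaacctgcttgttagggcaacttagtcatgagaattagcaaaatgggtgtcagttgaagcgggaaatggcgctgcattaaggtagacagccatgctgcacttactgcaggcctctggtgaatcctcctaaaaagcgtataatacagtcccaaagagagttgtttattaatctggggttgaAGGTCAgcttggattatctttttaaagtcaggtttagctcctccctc
C4bp: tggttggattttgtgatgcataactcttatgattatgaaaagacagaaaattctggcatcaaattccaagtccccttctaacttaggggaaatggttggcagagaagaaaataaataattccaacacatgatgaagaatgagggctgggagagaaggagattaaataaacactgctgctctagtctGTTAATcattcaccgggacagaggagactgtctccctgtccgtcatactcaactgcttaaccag
GTTAAT stood in the windows of C8a and C4bp and AGGTCA in that of Mbl2, and the window of C9 held neither. Over all 32851 promoter windows of that length, GTTAAT or its complement stood in 6.43%, AGGTCA in 14.02% and TGTTTAC (a forkhead core) in 3.17%. The promoter table used here matched 26 of the 35 genes, of which 8 had GTTAAT, 6 AGGTCA and 0 TGTTTAC. These are matches of letters, and the gene that fell most shares its match with a gene that was not called.

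Among the genes of myeloid cells, 3 receptors and 2 C1q chains rose in culture, while 0 of the 2 other myeloid-made genes were called (Fcna 0.02 and Cfp 0.67). C5ar1, the receptor of C5a, was at 10.9 and 14.4 TPM in spheroids in vitro and 0.272, 0.309 and 1.05 TPM in hepatocyte preparations (4.21 ± 0.59, adjusted p = 0.00254). C3ar1 was at 12.7 and 15.1 TPM and 2.28, 0.923 and 1.04 TPM (2.94 ± 0.42, adjusted p = 0.00282). Itgb2 was at 13.2 and 7.12 TPM and 2.75, 1.56 and 1.47 TPM (2.01 ± 0.44, adjusted p = 0.0143). C1qc was at 25.6 and 20.4 TPM (1.43 ± 0.35, adjusted p = 0.0231), C1qb at 194 and 152 TPM (1.04 ± 0.27, adjusted p = 0.0276). C1qa, at 104 and 71.2 TPM, missed the limit (0.98 ± 0.28, adjusted p = 0.0352). The groups did not overlap for any of these genes, which in CPM held upward for 40.5% of all genes tested and downward for 18%. The C1qb and C1qc calls were each lost in 4 of the 5 fits without a sample, and that of Itgb2 without hepatocyte preparation 3 or spheroid sample 1. Of the macrophage markers 4 of 10 were called higher (Cd68, Lyz2, Ctss and Cd163) and 0 lower, and 2 of 6 Kupffer cell markers (Cd5l and Vsig4), whose list summed to 491 and 539 TPM in spheroids in vitro and 115 to 219.7 TPM in preparations. Their part in the result was not tested.

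**Figure D3:**
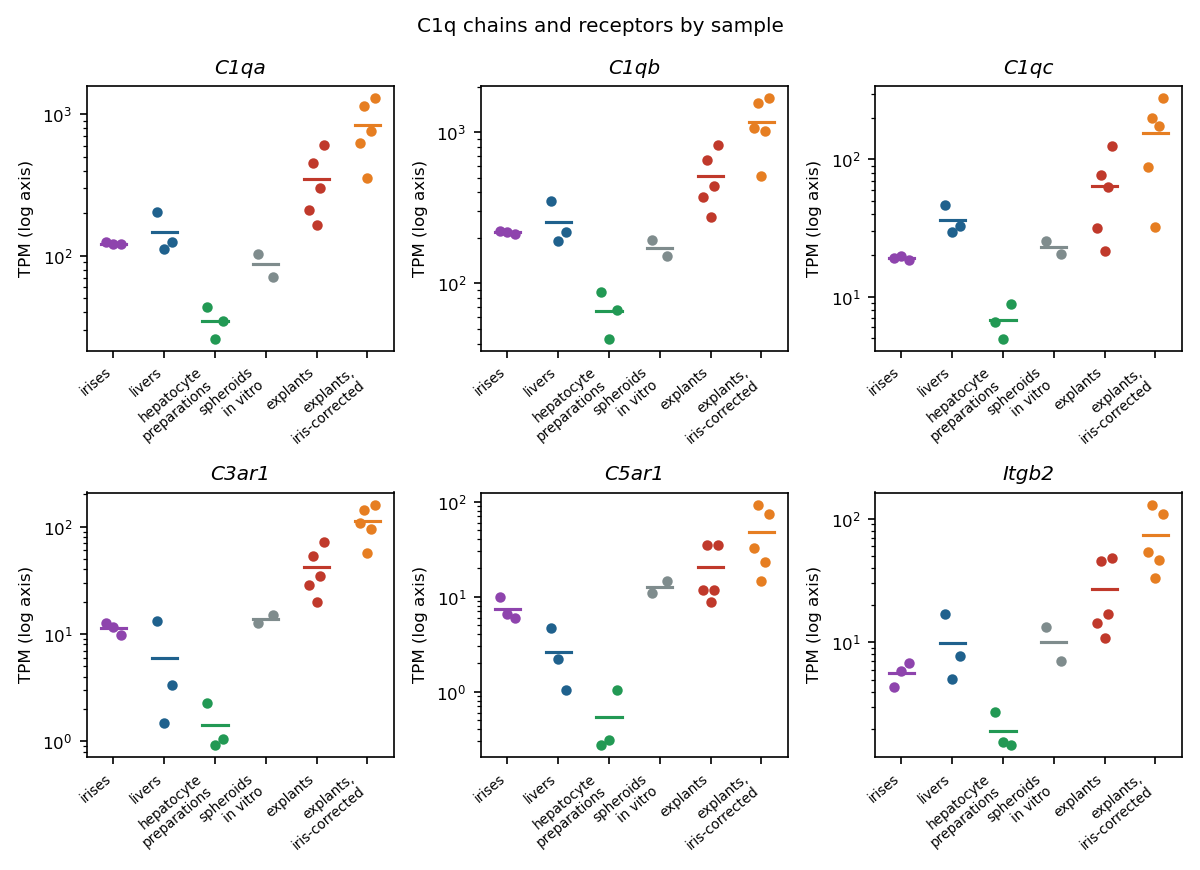
TPM (log axis) of the C1q chains and of C3ar1, C5ar1 and Itgb2 in each iris, liver, hepatocyte preparation, spheroid sample in vitro, explant and iris-corrected explant, with points for samples and bars for means. Hepatocyte preparations are the lowest group in all 6 panels, and the corrected explants have the highest means.

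To set the graft beside the liver, the iris part was subtracted from each explant's TPM by the formula in the study's methods, with the shares given above. That part was the mean of naïve irises, so a change in the iris of a grafted eye would stay in the corrected values. The formula was applied to all 5 explants, because the deposited column of explant 4 equals it in 16.3% of genes only. Subtraction magnifies errors in genes that the iris also expresses, and after it 2 explants were at 0 for Cd55 and Cd59a, 1 for C7 and 4 for Cd46. Cfd was at 0 in 3 explants already before. Differences below are in log2(TPM + 1), tested with limma.

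In corrected explants the members called against livers were receptors and C1q chains. Of 34 members tested against livers 6 were higher and 0 lower, where 11.8% of all 21002 genes tested were called higher and 3.01% lower. None of the 17 hepatocyte-made genes was called, with a median difference of -0.20, beside 0.61 over all genes tested and -0.03 over the 10 hepatocyte markers. At an unadjusted p under 0.05, 5 of the 17 were higher and 5 lower. All 4 receptors and 2 of the 3 C1q chains were higher, and of the 2 other myeloid-made genes, Fcna and Cfp, 0 were called. Without correction, with the iris part still in the values, 18 members were lower than in livers. The share of all genes called lower in that fit is not given here, so the count is no result about complement.

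**Figure D4:**
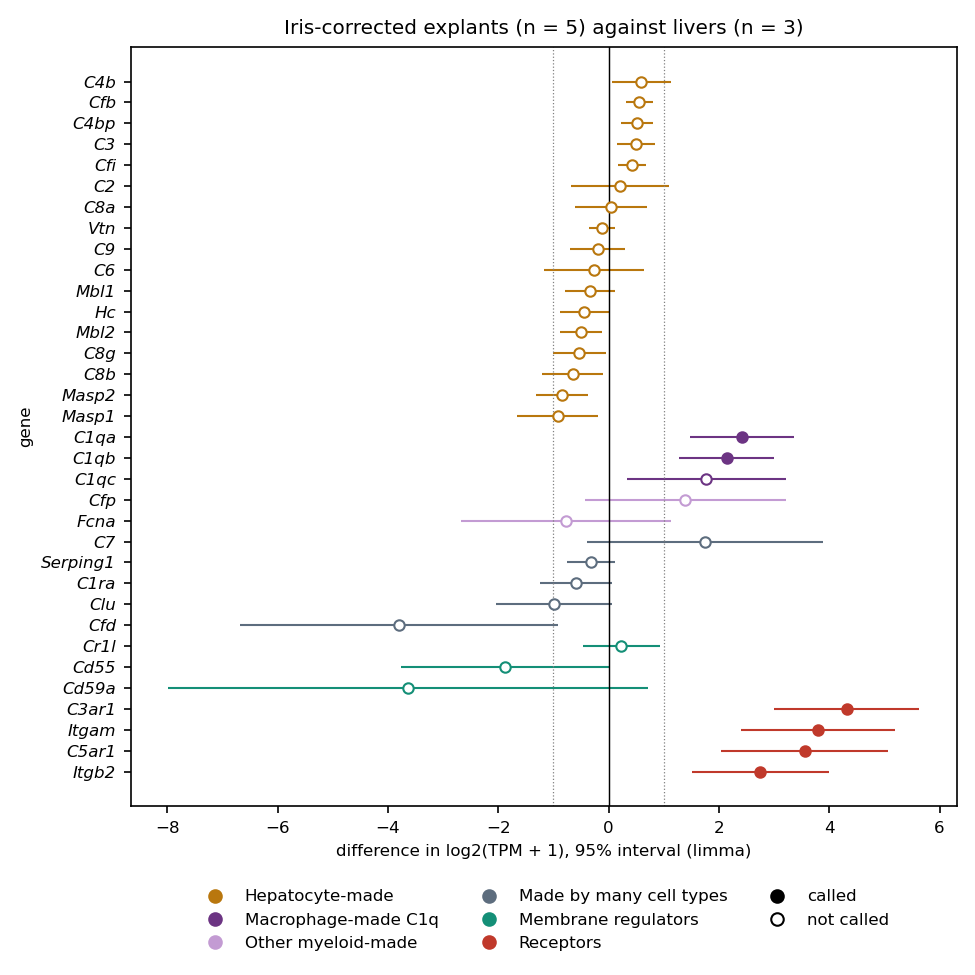
Difference in log2(TPM + 1) between 5 iris-corrected explants and 3 livers for each tested complement gene, with the 95% interval from limma (bars), coloured by known source and filled where called. Hepatocyte-made genes lie between -0.92 (Masp1) and 0.59 (C4b), and receptors between 2.75 (Itgb2) and 4.32 (C3ar1).

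C8a was at 438, 499, 622, 578 and 558 TPM in corrected explants, beside 296, 604 and 774 TPM in livers (0.05, 95% interval -0.60 to 0.70, adjusted p = 0.917). C9 was at 331, 555, 385, 507 and 564 TPM in corrected explants (-0.20, 95% interval -0.69 to 0.30, adjusted p = 0.562). The groups overlapped for both genes. C3 was at 2675, 2390.2, 1795, 2088 and 2114 TPM in corrected explants, each above every liver (0.50, 95% interval 0.15 to 0.84, adjusted p = 0.0564), and this difference turned to -1.38 without the correction. C3 had the highest counts per exonic base of the members, 0.861 in a library. Duplicate removal by position would cap such counts, but whether it was by position or by molecular identifier is not certain, and undoing a cap of 2 reads starting at each base gave a difference of 0.38.

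Of the other hepatocyte-made genes, Cfb, C4bp and Cfi passed an adjusted p under 0.05 with differences of 0.43 to 0.56, and Masp2 with -0.85, all short of the limit of 1. The ratio of the uncorrected explant to a mixture of iris and liver at the explant's share, which needs no floor at 0, was above 1 in all 5 explants for C3, Cfb, C4b, C4bp and Cfi. It was below 1 in all 5 for Hc, C8b, C8g, Masp1, Masp2, Mbl1 and Mbl2. The median ratio was 1.00 for C8a, 0.96 for C9, 1.38 for C4bp and 0.60 for C8b.

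C1qa was at 625, 1149, 354, 763 and 1306 TPM in corrected explants, beside 111 to 206 TPM in livers (2.42 ± 0.42, adjusted p = 0.00626). C1qb was at 1075, 1572, 516, 1019 and 1686 TPM, beside 192 to 352 TPM in livers (2.14 ± 0.38, adjusted p = 0.00707). C1qc was at 88.7, 200.5, 31.9, 176 and 280.0 TPM, beside 29.5 to 46.5 TPM in livers (1.77 ± 0.64, adjusted p = 0.0953). For C1qa and C1qb every explant was above every liver, which held upward for 19.8% of all genes tested and downward for 8.74%, while explant 4 lay within the liver range for C1qc. The C1qa and C1qb calls held in all 8 fits without a sample. Without correction the differences were 1.13 for C1qa, still called, and 0.95 for C1qb, and the deposited corrected values gave 1.98 for C1qb, not called.

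The receptors stood farther from the liver than C1q. C3ar1 was at 107, 143, 56.6, 95.9 and 161 TPM in corrected explants and 13.3, 1.47 and 3.37 TPM in livers (4.32 ± 0.58, adjusted p = 0.00242). Itgam was at 25.5, 30.8, 50.7, 8.28 and 31.6 TPM and 1.97, 0.221 and 0.931 TPM (3.79 ± 0.62, adjusted p = 0.00504). C5ar1 was at 32.2, 93.1, 14.4, 23.2 and 74.2 TPM and 4.61, 2.19 and 1.03 TPM (3.55 ± 0.67, adjusted p = 0.00879), a call lost without liver 3. Itgb2 was at 53.5, 130.5, 33.1, 46.6 and 109 TPM and 16.9, 5.07 and 7.78 TPM (2.75 ± 0.55, adjusted p = 0.0109), lost without liver 2 or 3. Every corrected explant was above every liver for these receptors, which held for 19.8% of all genes tested (8.74% the other way). Macrophage markers moved with them, 6 of 10 being called higher, with corrected sums of 2111 to 4598 TPM, and their part in the result was not tested. Neutrophil markers summed to 1.32 to 11.8 TPM in explants before correction, with Ly6g and Mpo at 0 in all explants.

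Clec4f, a lectin that marks the resident macrophages of the liver, was called lower in corrected explants than in livers, the only call among 6 Kupffer cell markers. It was at 0.661, 3.93, 0.395, 0.173 and 2.32 TPM in explants 1, 2, 4, 5 and 6 before correction and at 31.3, 101 and 123 TPM in livers. Vsig4, the complement receptor of tissue macrophages, was at 1.47, 22.8, 0.986, 2.31 and 39.6 TPM in explants and 44.1, 50.8 and 73.3 TPM in livers. Fcna, ficolin A, a lectin made by macrophages, had the same high samples. It was at 3.57, 41.3, 3.55, 9.66 and 71.7 TPM in explants, 0.437, 1.401 and 0 TPM in irises and 42.1, 106 and 113 TPM in livers, and missed the threshold against irises (5.50 ± 1.58, adjusted p = 0.0518). Cfp, properdin, which stabilises the alternative convertase, was at 21.01, 67.5, 14.6, 43.4 and 111 TPM in explants and 29.3, 25.5 and 42.9 TPM in livers, with the groups of corrected explants and livers overlapping.

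Corrected explants were then set against hepatocyte preparations, the kind of cells that spheroids were formed from. In the explants 7 of 34 tested members were higher and 1 lower, where 15.7% of all 20726 genes tested were called higher and 3.28% lower. The 7 were the 3 C1q chains and the 4 receptors. The differences were 4.44 ± 0.41, adjusted p = 0.000178 for C1qa, 4.07 ± 0.39, adjusted p = 0.000224 for C1qb and 4.03 ± 0.65, adjusted p = 0.00283 for C1qc, with no overlap between groups, which held upward for 23.1% and downward for 8.38% of all genes tested. The receptors gave 4.50 (Itgam), 4.53 (Itgb2), 4.69 (C5ar1) and 5.51 (C3ar1). The lower gene was C8b, at 277, 386, 314, 262 and 444 TPM in corrected explants (-1.11 ± 0.25, adjusted p = 0.0126), a call lost without hepatocyte preparations 2 or 3. C3 differed by 0.50 (adjusted p = 0.0318) and C9 by -0.40 (adjusted p = 0.217).

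A comparison of corrected explants with spheroids in vitro was added after the values had been seen. It gave 10 of 33 tested members higher and 0 lower, where 5% of all 21217 genes tested were called higher and 0.957% lower. C8a (3.91 ± 0.22, adjusted p = 0.00034) and C9 (3.23 ± 0.29, adjusted p = 0.00125) were higher in every explant than in both spheroid samples, which held for 17.1% of all genes tested (9.47% the other way), and were also called without correction (2.02 and 1.36). These calls held in all 7 fits without a sample, while those of the other 8 (C1qa, C1qb, C4b, Mbl1, C3, C3ar1, Itgam and Itgb2) were lost when either spheroid sample was left out, 2 members then being called. With the deposited corrected values 4 members were called. Differences of these 8 ran from 1.10 (C3) to 3.57 (Itgam), with C1qa 3.13 ± 0.48, adjusted p = 0.00925, C1qb 2.65 ± 0.43, adjusted p = 0.011 and C3 1.10 ± 0.19, adjusted p = 0.013. C1qc was not called (2.38 ± 0.77, adjusted p = 0.135). The explants and the spheroids in vitro were not of the same age, and time and site cannot be told apart.

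Within a sample, summed C1q was 20.3%, 24.2%, 15.4%, 19.99% and 26.6% of the summed hepatocyte-made genes in explants 1, 2, 4, 5 and 6. It was 30.3% to 34.4% in irises, 2.87% to 5.69% in livers, 0.606% to 1.202% in hepatocyte preparations and 3.02% and 4.09% in spheroids in vitro. In irises C2, which was higher there than in livers, gave 487 to 524 TPM of a hepatocyte-made sum of 1064 to 1158 TPM. In uncorrected explants C2 gave 394 to 477 TPM. The ratios of irises and uncorrected explants are therefore not set against hepatocyte products alone. After correction the explants were at 15.1%, 22.7%, 8.14%, 16.9% and 25.8%. All corrected explants were above all livers, with explant 4 nearest to them.

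Membrane regulators, which protect host cells, showed no call in any comparison with the graft, but Cd46 was not tested after correction. Their corrected sum was 46.3 to 188 TPM in explants, beside 239 to 352 TPM in livers. The 3 tested regulators differed from livers by -3.63 to 0.23, with 0 lower at an unadjusted p under 0.05 (limma). The subtraction set Cd59a to 0 in 2 explants. Cd59a, the inhibitor of C9 insertion, was at 357, 313, 401, 374 and 338 TPM in explants before correction, 454, 497 and 439.8 TPM in irises and 195, 247 and 309 TPM in livers. It was lower in every explant than in every iris, with a log2 fold change of -0.28 ± 0.07 (SE, adjusted p = 0.0329). Cd55, which speeds decay of the convertases, was at 6.35 to 9.98 TPM in explants, and Cr1l (Crry), the main C3 regulator of rodent cells, at 34.7 to 40.9 TPM. Cr1l was at 39.04 to 42.9 TPM in irises, 25.4 to 30.02 TPM in livers, 30.9 to 33.1 TPM in hepatocyte preparations and 49.1 and 49.4 TPM in spheroids in vitro.

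Cfd, which encodes the factor D protease, varied within the livers. It was at 0.755, 53.4 and 112 TPM in livers, 2.28, 2.58 and 5.85 TPM in hepatocyte preparations and at most 1.06 TPM in explants. Liver 1 was near the level of the explants. Cfd was tested against livers in corrected explants only, without a call. Of the adipocyte markers, Adipoq was at most 0.510 TPM and Plin1 and Lep were at 0 in livers, whereas Cidec was at 89.3, 28.4 and 58.97 TPM. Liver 1 was also the lowest liver for C6, C8a, C8b and Mbl1, and the highest for the C1q chains.

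Among 23 other genes of the pathway, 16 were tested between explants and irises, 7 being higher and 0 lower, where 6.16% of all genes tested were called higher and 0.316% lower. They included Cpn2 (4.40 ± 0.45, adjusted p = 0.000504) and Cpn1 (4.30 ± 0.47, adjusted p = 0.000604), the subunits of the carboxypeptidase that inactivates C3a and C5a. In hepatocyte preparations 1 of 16 was lower than in livers, Colec11 (-2.72 ± 0.42, adjusted p = 0.031), a collectin, where 2.31% of all genes tested were called lower. In spheroids in vitro 6 of 15 were lower, among them Susd4 (-4.98 ± 1.00, adjusted p = 0.0108) and C4a (-2.13 ± 0.56, adjusted p = 0.0282), and 2 higher, Cd93 (2.33 ± 0.31, adjusted p = 0.00208) and Vsig4 (1.87 ± 0.29, adjusted p = 0.00371). Of all genes tested there, 9.11% were called lower and 8.13% higher. In corrected explants 3 of 18 were lower than in livers, Colec10, Colec11 and Cpn2 (differences -2.83, -1.79 and -1.28), and Cd93 was higher (1.90). The shares over all genes tested were 3.01% lower and 11.8% higher.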

How the data were processed

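The 35 genes and all lists were chosen with earlier results of these data known. The authors made bulk Smart-seq3 libraries, aligned them with TopHat2 to mm10, removed duplicate reads (UMI-tools and SAMtools are both listed, with no role given) and counted exons with featureCounts without strand. They deposited counts collapsed over 3 technical libraries per sample, the gene lengths used, TPM before correction and an iris-corrected score in TPM units, (TPM − iris mean × share) / (1 − share) with negatives set to 0. Removing duplicates by position would cap abundant genes. The deposited counts of single libraries served for alternatives, and a further table of them without gene identifiers was not used. No per-sample column was left unused (0).

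Counts were tested with edgeR 4.0.16 (quasi-likelihood, filterByExpr, TMM) in R 4.3.3, and corrected values, recomputed with the formula, with limma 3.58.1 on log2(TPM + 1) for genes with a mean of at least 1 TPM. A call needed a Benjamini-Hochberg adjusted p under 0.05 over all genes tested and a log2 fold change beyond 1. A value after ± is the SE. The scripts were tested on simulated data. DESeq2 1.42.0, limma-voom, other scalings, filters, pseudocounts, iris shares and fits without each sample were alternatives. C1qa, C1qb, C1qc, C3 and C9 were named throughout, with at most 12 called members per comparison in full and others by count and range. Some items are not reported here.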

Additional observations from a re-analysis of the deposited data

Results flagged for a closer look

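Among 70 sets of explant values for the 35 genes, before and after correction, 2 held a sample far from the others by Dixon's test (critical value 0.71 for 5 samples), and chance flags about 1 in 20. Corrected C4bp was at 582 TPM in explant 4, the highest of the explants, with the next at 531 TPM and the lowest at 510 TPM (gap over range 0.712). Corrected Cd46 was at 0.685 TPM in explant 1 and at 0, the floor of the subtraction, in the other 4 (gap over range 1). With those 4 at the floor the ratio is 1 for any value above 0, so this flag marks no distant sample.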

How the results depend on the processing

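Of the alternatives for single genes other than leaving out a sample, 760 kept direction and side of the threshold, 61 lost the call, 14 gained one and 4 reversed, and of the fits without a sample 593 kept both, 74 lost the call and 6 gained one. The reversals came with TPM before correction, which adds the iris part, giving C3 -1.38 against livers and -1.38 against hepatocyte preparations, and C3 -0.77 and Mbl1 -0.38 against spheroids in vitro. That setting also gave 18, 17 and 8 lower members against livers, preparations and spheroids in vitro, without the share of all genes beside them. Limma-voom gave 12 higher members in explants against irises and 0 lower in preparations against livers, where no filter gave 6 and a single fit of all groups 5. Library size alone gave 4 higher members in irises and 7 lower in spheroids in vitro, where the single fit gave 2 higher. Against livers, no filter gave 1 lower member in corrected explants, and against preparations the iris share by non-negative least squares gave 0. Against spheroids in vitro the deposited corrected values gave 4 higher. The cause was not tested.

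Without each sample in turn, higher members ranged from 14 to 24 in explants against irises, 2 to 5 in irises against livers and 3 to 5 in spheroids in vitro against preparations, and lower members from 23 to 25, 0 to 4 (preparations against livers) and 10 to 12 (spheroids in vitro). For corrected explants they ranged from 4 to 8 higher and 0 to 1 lower against livers, 7 to 8 and 0 to 3 against preparations and 2 to 12 higher against spheroids in vitro.

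The labels do not say whether same-numbered samples share a donor, and the main tests took them as unpaired. Their deviations from the group means correlated by -0.13 to 0.13, which in groups this small cannot settle it. A replicate block gave 0 higher members for corrected explants against livers, preparations and spheroids in vitro and 0 lower against preparations. Groups of 2 to 5 samples and an iris share of 59% to 82% limit these values.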
